A study of Homo sapiens with 22 samples.

Results

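CpG-poor promoters are the starts of protein-coding genes that lie outside CpG islands. They were taken here as the 5′ ends of GENCODE 44 protein-coding genes on chromosomes 1 to 22 whose surrounding DNA, 500 bp to either side, had a CpG observed/expected ratio under 0.4 in hg38, and that had no protein-coding start of the other strand within 1 kb. This rule used sequence and annotation alone and gave 5430 of 19111 protein-coding starts, or 28.4%. The annotated 5′ end is the most upstream start of a gene, and for 67.8% of the 5430 it lay within 500 bp of the start of the Ensembl canonical transcript.

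The data were transposon insertions in K562 cells, a human leukaemia line with erythroid and megakaryocytic features. All cells had received the donor plasmid Barcoded-PBase-SRT-Puro by electroporation together with a helper plasmid, hyPBase in 10 libraries and hyPBase-centrip in 10 libraries, and had been kept under puromycin selection before RNA was made from pools of 3 transfections. How hyPBase-centrip differs from hyPBase is not given in the sources used here. No library lacked a transposase, and no gene expression was measured, so a rate is compared with the rest of the genome and with neighbouring DNA only. The 20 libraries held between 1509672 and 3596762 insertions each, every insertion on chromosomes 1 to 22 lay on a TTAA site, and 49.0% of all TTAA sites there were hit at least once.

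As background, piggyBac transposase (PBase) inserts at TTAA sequences and, when it is not fused to a transcription factor, is drawn to enhancers and active promoters. An insertion of the self-reporting transposon (SRT) is found by sequencing RNA that starts inside the transposon and ends in host sequence. Promoters within CpG islands are mostly open in many cell types, whereas CpG-poor promoters typically belong to genes used in a single tissue, such as globin, olfactory receptor or keratin genes, and depend on tissue-specific factors to be open.

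The sequences below show what these promoters look like at both ends of the scale. Each is a stretch of 300 bases upstream of the gene's 5′ end, read on the gene's strand from hg38 and overlapping no annotated exon, in lower case with the TTAA target sites in capitals. CASS4 and NCR1 had the highest insertion rates among promoters with at least 3 TTAA sites within 500 bp, RHAG is an erythroid gene, and CLEC7A had many TTAA sites and no insertion in any library.
CASS4, chr20:56411612-56411911, plus strand: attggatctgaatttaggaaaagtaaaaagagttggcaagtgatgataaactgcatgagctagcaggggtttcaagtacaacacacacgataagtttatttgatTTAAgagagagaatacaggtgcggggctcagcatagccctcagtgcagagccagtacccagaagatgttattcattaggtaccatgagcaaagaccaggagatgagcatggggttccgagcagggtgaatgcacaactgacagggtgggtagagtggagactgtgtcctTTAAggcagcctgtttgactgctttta
NCR1, chr19:54905648-54905947, plus strand: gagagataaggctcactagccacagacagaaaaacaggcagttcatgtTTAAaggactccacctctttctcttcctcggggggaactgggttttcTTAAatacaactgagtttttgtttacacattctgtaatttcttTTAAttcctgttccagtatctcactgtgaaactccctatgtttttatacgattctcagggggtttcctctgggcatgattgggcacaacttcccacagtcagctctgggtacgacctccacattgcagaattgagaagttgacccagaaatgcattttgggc
RHAG, chr6:49636960-49637259, minus strand: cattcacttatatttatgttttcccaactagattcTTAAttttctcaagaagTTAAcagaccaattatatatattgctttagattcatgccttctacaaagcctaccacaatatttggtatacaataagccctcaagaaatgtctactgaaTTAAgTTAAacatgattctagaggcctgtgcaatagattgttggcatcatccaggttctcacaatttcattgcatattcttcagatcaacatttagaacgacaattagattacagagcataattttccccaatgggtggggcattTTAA
CLEC7A, chr12:10130429-10130728, minus strand: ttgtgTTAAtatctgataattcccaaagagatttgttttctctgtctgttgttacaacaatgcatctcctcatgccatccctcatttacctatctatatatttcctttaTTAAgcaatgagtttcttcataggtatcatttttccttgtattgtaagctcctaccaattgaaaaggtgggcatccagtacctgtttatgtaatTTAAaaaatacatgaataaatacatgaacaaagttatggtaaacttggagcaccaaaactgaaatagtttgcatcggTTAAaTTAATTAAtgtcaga
Sites are placed by their distance from the start in the direction of the gene, with negative values upstream. In the CASS4 stretch, the TTAA at -225 bp held 647 insertions over the 20 libraries and that at -394 bp held 143. The 3 sites of the NCR1 stretch, at -450, -403 and -360 bp, held 728, 437 and 45 insertions. The RHAG stretch showed how uneven close neighbours could be, since the sites at -268 and -263 bp held 131 and 333 insertions while those at -384 and -367 bp held 6 and 0. The 6 capitalised sites of CLEC7A held 0 insertions each. The stretches contained 3 CpG dinucleotides in CASS4 and NCR1, and 1 in RHAG and CLEC7A.

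Summed over all 5430 starts, CpG-poor promoters were inserted above the genome rate, but by much less than CpG-rich ones. The core, defined as the 500 bp on either side of the start, held 2.72 ± 0.116 times the genome rate of insertions per TTAA site (SD, n = 20 libraries; range 2.62 to 3.05), where the genome rate is that of chromosomes 1 to 22 in the same library. The flanks, 3 to 5 kb away on both sides, held 1.72 ± 0.0274 times the genome rate. The core was thus 1.58 ± 0.0441 times the flank (log2 0.66, higher in 20 of 20 libraries; two-sided sign-flip permutation test, p = 2.00e-05, the smallest that 100000 resamples can give). At the 9289 promoters with an observed/expected ratio of at least 0.6 and no start of the other strand within 1 kb, called CpG-rich here, the core was 3.85 ± 0.149 times the flank, and the log2 difference between the classes was -1.28 (same test over libraries, p = 2.00e-05). Because the same sites are read in each library, these p-values measure the spread between libraries, which may be technical and may not be fully independent of each other, and not the spread between promoters.

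In 250 bp steps the rate around CpG-poor starts stayed between 1.51 and 1.78 times the genome rate from 5 kb to 750 bp upstream, reached 3.07 ± 0.175 in the last 250 bp before the start and 3.14 ± 0.166 in the 250 bp after it, and fell more slowly into the gene. It was still 2.42 ± 0.0716 at 750 to 1000 bp downstream, against 1.68 ± 0.0312 at the same distance upstream. Averaged from 0.5 to 5 kb, the downstream rate exceeded the upstream rate by 0.23 on the log2 scale (n = 20, sign-flip permutation test, p = 2.00e-05), whereas CpG-rich promoters had the opposite sign, -0.24. The CpG-rich profile peaked at 10.1 ± 0.384 times the genome rate, 250 to 500 bp upstream of the start. The annotated 5′ end is the most upstream start, and for 67.8% of CpG-poor promoters it lay within 500 bp of the canonical start. A canonical start further off lies downstream, so the downstream side can hold other starts of the same gene. Whether the downstream excess holds at promoters near their canonical start was not tested.

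**Figure D1:**
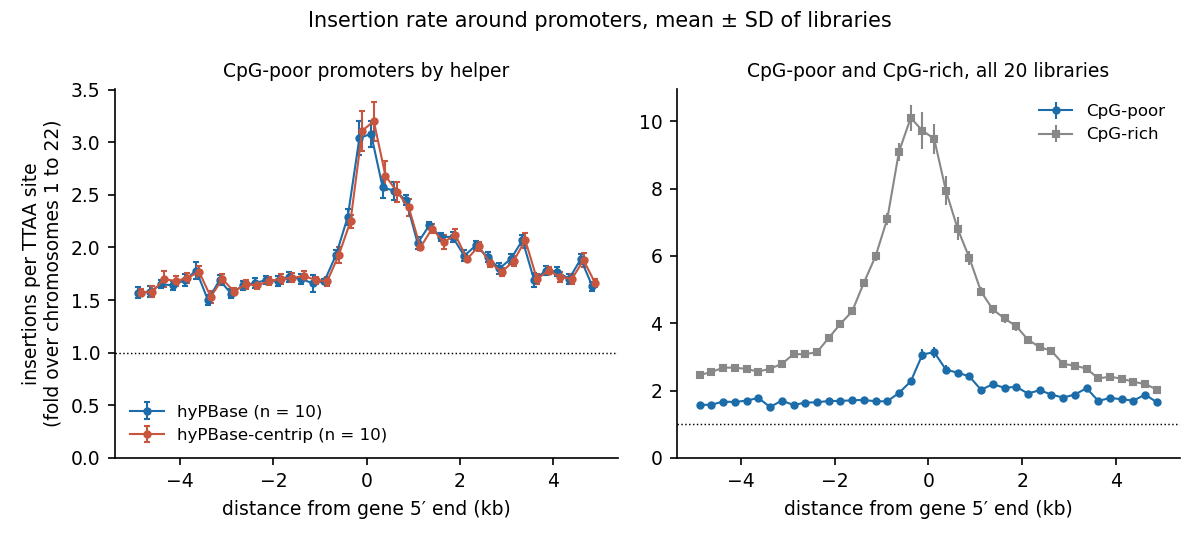
Insertions per TTAA site, as fold over chromosomes 1 to 22, in 250 bp bins from 5 kb upstream to 5 kb downstream of the gene 5′ end; points are means and bars SD over libraries. Left, CpG-poor promoters with each helper, whose peaks near 3 overlap; right, CpG-poor against CpG-rich promoters on a common scale, where the CpG-rich peak reaches 10.1 and the CpG-poor peak 3.14.

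The sum hid a very uneven class, in which most promoters lay below the genome rate and a small part carried most insertions. A promoter was scored when its core had at least 3 TTAA sites, which 3361 of the 5430 did, while 1480 had 1 or 2 sites and 589 had none. The CpG-poor core held 4.36 TTAA sites per kb against 1.97 at CpG-rich promoters. The median scored promoter had 0.710 times the genome rate (quartiles 0.254 and 1.86), against 4.26 for CpG-rich promoters, and 60.5% of the scored CpG-poor promoters lay below the genome rate, where the share over all 7807 scored protein-coding promoters was 42.2%. At most 0.5 times the genome rate was found at 1396 promoters (41.5%; 29.0% over all protein-coding promoters), with 272 at no insertion, and at least 4 times the genome rate at 434 (12.9%; 32.4% over all). A core of 3 TTAA sites with no insertion in 20 libraries still allows a rate up to 0.355 times the genome rate, so the depth separates cold from average promoters only roughly at that size.

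The 336 promoters that make up the highest 10% in core insertions held 69.7% of all core insertions at scored CpG-poor promoters, and 126 promoters held 50% or more of them. Without the 10% of promoters that had most insertions within 5 kb, a setting added after the data were seen, the class sum fell to 0.17 over the genome and 0.21 over the flank on the log2 scale. With barcodes collapsed, so that each position and orientation counts once in a library, these values were 0.92 and 0.33.

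The level of a promoter was similar with both helpers. Of 427 promoters at 4 times the genome rate or more with hyPBase and 437 with hyPBase-centrip, 391 were shared, which is 91.6% and 89.5% of the respective lists, and over the 3361 scored promoters Spearman's rho between the helpers was 0.881. These points share the TTAA sites and the cell line. The core level ran with the surroundings, with rho 0.586 against the rate of the 100 kb on either side and 0.630 against the flank, and hardly with base composition, at 0.116 against the CpG ratio and 0.0880 against GC content within the class.

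**Figure D2:**
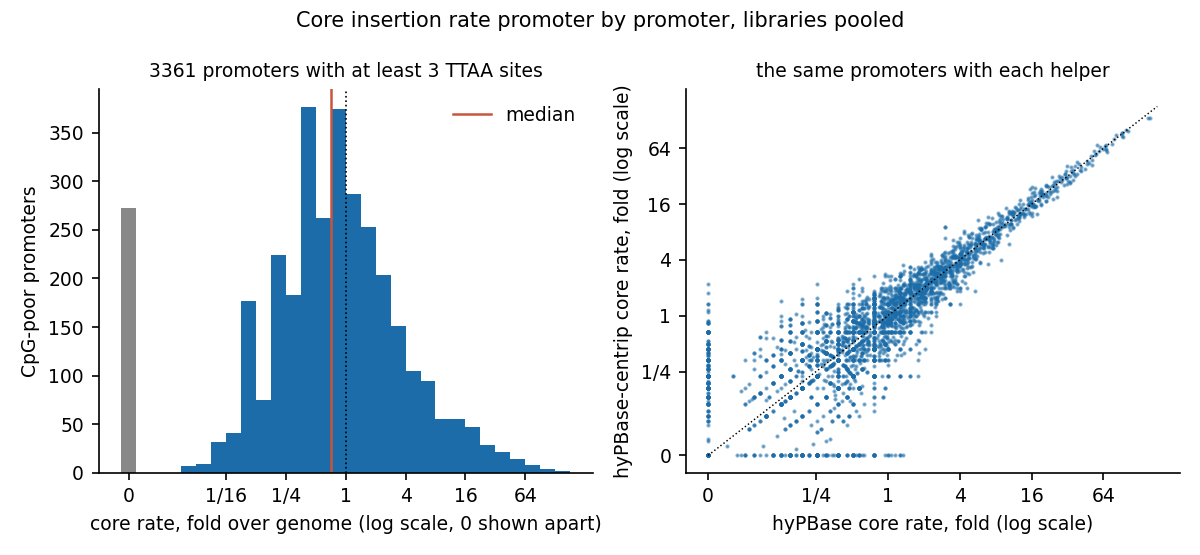
Core rate of the 3361 scored CpG-poor promoters as fold over the genome rate on log axes. Left, number of promoters per level with the 272 at no insertion in grey and the median of 0.710 in red; right, each promoter's rate with hyPBase and with hyPBase-centrip, where high promoters lie along the diagonal and low ones scatter.

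High and cold promoters also had different medians in features other than their core rate, given here without a test. Promoters at 4 times the genome rate or more had a median flank of 2.74 and a median rate of 2.21 in the surrounding 100 kb on either side, against 0.341 and 0.535 for those at 0.5 or less. Their genes were longer, with a median of 31.6 kb against 14.7 kb. Their annotated 5′ end lay near the canonical start in 51.2% of cases, against 72.4% among cold promoters. Median GC content was 44.1% against 42.1%, and the number of TTAA sites in the core was 5 against 6. When promoters were chosen in one helper and measured in the other, the high ones kept a local peak, with the core at 3.04 ± 0.0919 times the flank in hyPBase-centrip (n = 10) and 2.90 ± 0.0794 in hyPBase (n = 10). The cold ones kept a local dip, with the core at 0.476 ± 0.0280 and 0.455 ± 0.0254 times the flank. This ratio holds the core rate by which promoters were chosen, and both helpers read the same TTAA sites. A peak in the high set and a dip in the cold set were therefore favoured by the choice.

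Tested promoter by promoter, the core was above the flank about as often as below it. edgeR's quasi-likelihood test with Benjamini-Hochberg adjustment over 5628 protein-coding promoters with enough sites and insertions included 2119 CpG-poor ones. Of these, 545 (25.7%) had a core at least 2-fold higher than the flank at an adjusted p below 0.05, against 45.2% of all promoters tested, and 523 (24.7%) had a core at least 2-fold lower, against 18.8% of all tested. The median log2 difference was -0.029 for CpG-poor promoters and 0.75 for all those tested. With each helper alone, 488 and 554 CpG-poor promoters were higher, 429 of them in both, and 413 and 435 were lower, 306 of them in both. The edgeR p-values of core against flank, here and below, measure the spread between libraries at the same TTAA sites. They do not measure the spread between the sites of a promoter, which can be large, as at RHAG above.

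The largest excess over the flank was at ZNF705A, a zinc finger gene, whose 10 core sites held 510 insertions, 18.1 times the genome rate, beside a flank at 0.0888 (log2 difference 6.94 ± 0.210 SE, adjusted p = 9.08e-67, edgeR). Its 20 flank sites held only 5 insertions, while the surrounding 100 kb on either side held 0.921 times the genome rate. Whether reads can be placed in that flank was not tested. NCR1, which encodes an activating receptor of natural killer cells, followed at log2 6.29 ± 0.110. OR4F4, an olfactory receptor gene, had 124 of its 127 core insertions on a single site at -109 bp. GNE, which encodes the enzyme that starts sialic acid synthesis, had 114 of 121 on a site 276 bp downstream of an annotated 5′ end that lies 18594 bp from its canonical start. ABCA6, a lipid transporter gene, had 271 of 332 on a site 42 bp downstream. In all 5, the excess was present with each helper alone.

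The deepest dips lay beside well inserted flanks. LRFN3 had 1 insertion on the 3 core sites and 674 on the 13 flank sites, a flank of 18.4 times the genome rate (log2 -6.34 ± 0.370 SE, adjusted p = 2.09e-35, edgeR). THRA, the thyroid hormone receptor alpha gene, had 4 insertions on 4 core sites against 938 on 13 flank sites, a flank at 25.6 (log2 -5.81 ± 0.260). At THRA the canonical start lies 4675 bp downstream of the annotated 5′ end, which is within the 3 to 5 kb flank. Another protein-coding start lies 2925 bp from that 5′ end. The dip at THRA thus sets an upstream start against a flank that holds the canonical start of the same gene. At LRFN3 the annotated 5′ end lies 1016 bp from the canonical start. OR4F17 had 0 insertions on 12 core sites beside a flank at 2.94. TFR2, a transferrin receptor gene, had 0 on 3 sites beside a flank at 4.04, at a 5′ end 1227 bp from its canonical start. The unnamed gene ENSG00000258989 had 0 on 3 sites beside a flank at 2.34. OR4F genes have near-identical copies, and how reads from such copies were placed was not tested.

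The 10 scored promoters, with at least 3 core TTAA sites, that had the highest rate in hyPBase were chosen in those libraries. Their hyPBase values are therefore a description. The choice did not use the hyPBase-centrip values, but both helpers read the same TTAA sites in the same cell line. CASS4, which encodes a scaffold protein of the Cas family, had rates from 137 to 198 times the genome rate over the 10 hyPBase libraries (median 157) and from 106 to 185 (median 138) over the 10 hyPBase-centrip libraries. NCR1 had 131 to 216 (median 149) and 113 to 192 (median 138). The ranges of the helpers overlapped at both genes. OR2AT4 had medians of 96.1 and 95.8, ZNF217, a zinc finger transcription factor gene, 96.7 and 99.9, and PALMD 95.1 and 92.4. VCL, which encodes the adhesion protein vinculin, had medians of 90.5 and 92.3, MBNL1, a splicing regulator gene, 91.6 and 87.6, and SLC7A11, which encodes a subunit of the cystine and glutamate exchanger, 90.5 and 83.3. NR2F2, a nuclear receptor gene, had 85.0 and 89.8, and RNF215 74.0 and 79.8. All 10 stayed above 70 times the genome rate in each hyPBase-centrip library.

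At 5 of these 10 genes the annotated 5′ end was the start of the canonical transcript or within 500 bp of it (CASS4, NCR1, OR2AT4, SLC7A11 and PALMD). At the others the canonical start lay 2923 bp (VCL) to 34360 bp (RNF215) away, so those rates belong to a CpG-poor upstream start and not to the main promoter of the gene. Insertions piled up on few sites. The top site held 34.3% of the 1702 core insertions at ZNF217, 60.2% of 1210 at NCR1 and 83.7% of 676 at RNF215. Over all 434 high promoters the top site held a median of 50.8% (quartiles 38.2 and 66.7), and the single highest site, the NCR1 site at -450 bp, held 728. With 26 transposon barcodes, 2 orientations and 20 libraries a site can show at most 1040 insertions, so rates at the highest sites are compressed.

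**Figure D3:**
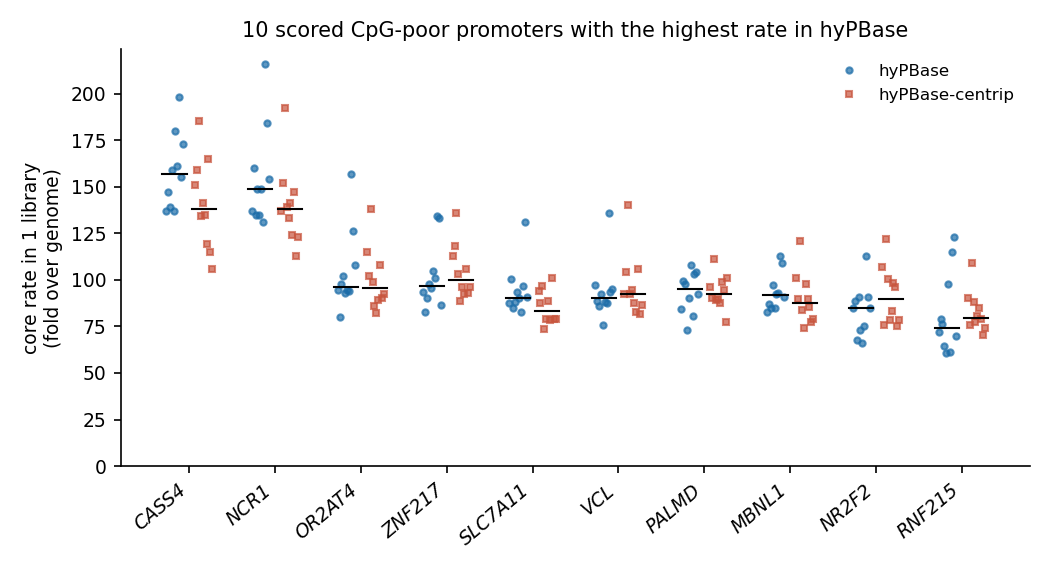
Core rate in each library, as fold over the genome rate, for the 10 scored CpG-poor promoters with the highest rate in hyPBase; circles are the 10 hyPBase libraries, squares the 10 hyPBase-centrip libraries and bars medians. CASS4 and NCR1 lie above 100 in every library, and the point clouds of the helpers overlap at all 10 promoters.

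Erythroid genes had the highest median of the gene lists examined. Of 41 listed genes, 23 had CpG-poor promoters, and of the 16 that were scored 15 had at least 4 times the genome rate, a level reached by 12.9% of scored CpG-poor and 32.4% of all scored promoters. None had 0.5 or less, where 41.5% and 29.0% of those lay. They had a median of 19.3 (quartiles 6.74 and 34.2) against 0.710 for all scored CpG-poor promoters. The median rate in the surrounding 100 kb on either side was 2.44 for these genes and 1.07 for the class. HBG2 and HBE1, whose annotated starts are 47 bp apart, count as separate members of the 16 although their windows overlap. In the test of core against flank, 8 of the 16 had a core at least 2-fold higher and 1, HBB, at least 2-fold lower, where 45.2% and 18.8% of all promoters tested and 25.7% and 24.7% of the CpG-poor ones were so. The share with a higher core was thus near that of all promoters.

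Among the erythroid regulators, LMO2, a bridging factor of the erythroid transcription complex, had 54.5 times the genome rate over 6 sites, with 41.8 to 67.8 over all libraries, and a core above its flank by 2.80 ± 0.079 SE on the log2 scale (adjusted p = 1.20e-70, edgeR). HEMGN, a nuclear protein gene of erythroid progenitors, had 30.6 with a flank at 12.4, at an annotated 5′ end that lies 6684 bp from its canonical start. KLF1, the erythroid Krüppel-like factor gene, had 5.68 over 3 sites with some libraries at 0, no higher than its flank of 7.17 (log2 -0.33 ± 0.230 SE, adjusted p = 0.186).

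Among membrane and cytoskeleton genes, RHAG, the Rh-associated glycoprotein gene whose sequence is printed above, had 51.6 times the genome rate (36.6 to 55.2 over hyPBase and 47.7 to 67.8 over hyPBase-centrip libraries) within a flank at 25.9. EPB42, which encodes protein 4.2 of the red cell skeleton, had 46.9 beside a flank at 1.30 (log2 5.08 ± 0.150 SE, adjusted p = 3.20e-67, edgeR). GYPB, a glycophorin gene, had 22.4 and GYPE 16.2. GYPB and GYPE are close copies, so reads may be split between them. RHD had 7.03, KEL, a blood group antigen gene, 5.50, and AHSP, the alpha globin chaperone gene, 9.11, none with a core 2-fold above its flank. Read placement at RHD was not tested.

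The globin genes varied widely. HBG1, a fetal gamma globin gene, had 227 insertions on the only TTAA site of its core, at -390 bp, which is 80.6 times the genome rate. HBZ, the embryonic zeta globin gene, had 519 on a single site (184 times), but its annotated 5′ end lies 9916 bp from its canonical start. HBG2 (39.2) and HBE1 (32.5) have annotated 5′ ends beside each other, 250824 and 235707 bp upstream of their canonical starts, so these values describe that distant start only. HBD had 11.2 over 2 sites, at a 5′ end 9174 bp from its canonical start, and HBB, the adult beta globin gene, had 5.86 over 10 sites within a flank at 13.5 (log2 -1.20 ± 0.100 SE, adjusted p = 1.77e-21, edgeR). The HBB 5′ end used lies 2324 bp from its canonical start, so that dip is not at the main start. HBG1 and HBG2 are near-identical copies, with the same limit on reads.

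The remaining erythroid genes were lower or not scored. PKLR, the red cell pyruvate kinase gene, had 13.3 over 2 sites, TRIM10 3.91 over 1 site with 11 insertions in all, and CA1, a carbonic anhydrase gene, 3.02 over 4 sites, the only scored member under 4. ACKR1 and SLC4A1, the latter encoding the band 3 anion exchanger, had no TTAA site in the core, so nothing can be read there.

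Other blood lineages did not resemble the erythroid list. Of the T cell genes, 11 were scored with a median of 0.769 and 1 at or above 4, PTPRC (CD45, 11.5 over 16 sites beside a flank at 13.8). Neutrophil and monocyte genes had a median of 0.947 over 7, with LYZ, the lysozyme gene, at 6.19. Megakaryocyte and platelet genes had only 3 scored promoters, at a median of 1.51 and with PLEK highest at 3.61. The membrane-spanning 4A family of chromosome 11, expressed in mast, myeloid and B cells, differed along its cluster. MS4A3, MS4A2 and MS4A4E had 8.64, 5.37 and 20.4 times the genome rate with 6.00, 5.23 and 2.58 in the surroundings, whereas MS4A6E had 1.36 and MS4A1, which encodes CD20, 0.932. The family median was 1.69 over 11.

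Families used in other tissues had medians on either side of the class median of 0.710, most of them below it. The 342 scored olfactory receptor genes, of 399 with CpG-poor promoters, had a median of 0.405, with 33 at no insertion and 199 at or below 0.5 times the genome rate, a level that held 41.5% of all scored CpG-poor and 29.0% of all scored promoters. Medians were 0.473 for 56 keratin-associated protein genes, 0.710 for 21 keratin genes, 0.769 for 22 late cornified envelope and small proline-rich genes, 0.665 for 20 bitter taste receptor genes and 0.279 for 35 defensin genes. Of liver-related groups, liver genes had 0.760 over 8, cytochrome P450 genes 0.459 over 16, UDP-glucuronosyltransferase genes 0.311 over 18 and serpin genes 0.320 over 17, where SERPINF1 was highest and 3 genes had at least 4 times the genome rate. Skeletal and cardiac muscle genes had 0.287 over 6. Of immune families, chemokine genes had 0.485 over 18 with CXCL8 at 6.85, interleukin genes 1.04 over 21, C-type lectin and killer lectin-like receptor genes 0.690 over 23 with CLEC2B at 19.9, leukocyte and killer cell immunoglobulin-like receptor genes 0.118 over 5 and S100 protein genes 0.651 over 3. None of the 10 pregnancy-specific glycoprotein genes had 3 TTAA sites in the core. Promoters in no list had a median of 0.781 over 2667.

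**Figure D4:**
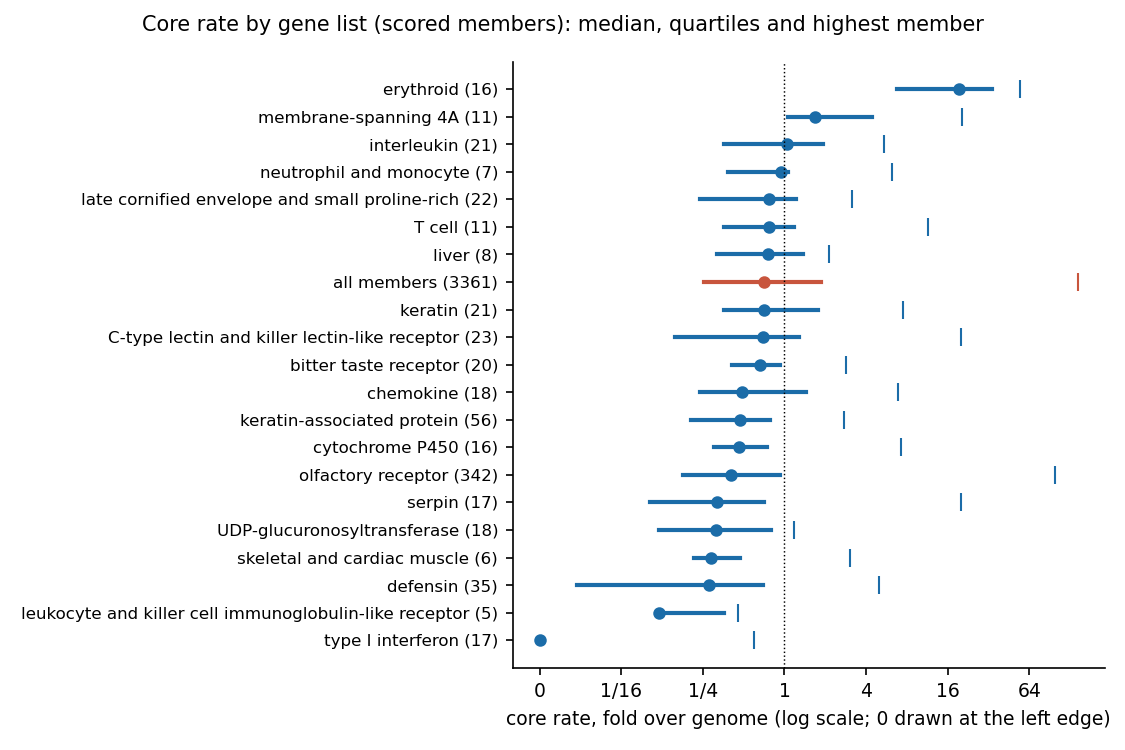
Core rate of scored CpG-poor promoters by gene list, as fold over the genome rate on a log axis, for lists with at least 5 scored members, whose number stands in brackets; dots are medians, thick lines quartiles and ticks the highest member, with rates of 0 drawn at the left edge. The erythroid median of 19.3 stands to the right of every other list, and all scored CpG-poor promoters have a median of 0.710.

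Of the 16 olfactory receptor genes at 4 times the genome rate or more, 7 lay on chromosome 11 beside the beta globin genes, from OR52A5 to OR51B5, a stretch chosen after the values were seen and given without a test. It held 11 scored olfactory receptor promoters in all, while 9 of the 331 scored elsewhere reached that level. Their rates were OR51V1 at 14.6, OR52A1 at 9.65, OR52A5 at 4.10, OR51I1 at 5.09, OR51I2 at 4.83 and OR52D1 at 4.76. The remaining gene, OR51B5, shares its annotated 5′ end with HBE1 and so has the same 32.5. Within the same stretch OR51B4 had 1.24 and OR51B2 0.284, although the surrounding 100 kb on either side held 9.20 and 8.89 times the genome rate there. OR2AT4, at 99.6, lies elsewhere on the chromosome in surroundings at 3.74.

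Some promoters were empty for want of insertions in the whole locus. Of 17 scored type I interferon genes, the 16 on the short arm of chromosome 9 between IFNB1 and IFNE had no insertion in the core, and the surrounding 100 kb on either side held no insertions or at most 0.001 times the genome rate. IFNK, further along the chromosome, had 5 insertions on 3 sites (0.592) in surroundings at 2.67. Over the class, 121 promoters had under 0.1 times the genome rate in their surroundings, and whether DNA is missing there or reads cannot be placed was not tested. Without such loci the class sum over the genome was 1.49 on the log2 scale, against 1.44 with them.

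Other promoters were empty within inserted loci. KLRC2, a natural killer cell receptor gene, had 0 insertions on 12 core sites, which allows up to 0.0888 times the genome rate, with 1.08 in its surroundings and a flank at 0.200, at a 5′ end 6290 bp from its canonical start. CLEC7A, which encodes the beta-glucan receptor dectin-1, had 0 on 10 sites, which allows up to 0.107, with 0.660 in its surroundings and a flank at 0.414 (log2 -3.55 ± 0.780 SE, adjusted p = 2.75e-05, edgeR). SMIM34 had 0 on 9 sites and 0 within 5 kb, with 0.701 in its surroundings. KLRC2 has close copies among its neighbours, and read placement there was not tested.

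Short motifs, counted as exact letters within 500 bp of the start on both strands, were compared between high and cold promoters without a test. AGATAA, the core of the site bound by GATA factors, was present at 55.3% of the 434 high and 53.5% of the 1396 cold promoters. Both groups were drawn from the 3361 scored CpG-poor promoters, of which 52.9% had AGATAA. It was at 2390 of the 5430 CpG-poor promoters and at 26.2% of all protein-coding promoters. It was present at 65.2% of the 23 erythroid and 62.9% of the 399 olfactory receptor promoters. TGACTCA, the AP-1 site, was at 23.3% of high and 17.3% of cold promoters (18.4% of scored CpG-poor, 10.8% of all). CCAAT was at 82.5% and 79.8% (80.1% of scored CpG-poor, 65.5% of all). TATAAA had the largest relative difference of the 4. Counted 45 to 15 bp upstream on the gene strand only, it was at 3.92% of high and 9.31% of cold promoters (7.35% of scored CpG-poor, 3.12% of all). A match is a run of letters and not a bound site, and the annotated 5′ end decides where TATAAA was looked for.

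Along the CpG scale the rate had no step at the limit of the class. The median core rate was 0.493 below a ratio of 0.1, 0.685, 0.710 and 0.888 in the next 3 steps of 0.1, 0.977 from 0.4 to 0.5 and 1.92 from 0.5 to 0.6, and it reached 5.50 from 0.8 to 0.9. Just inside the limit, from 0.35 to 0.4, the median was 1.00 over 240 scored promoters and the summed rate 4.52 ± 0.243 (SD, n = 20). Just outside it, from 0.4 to 0.45, these were 0.977 over 212 and 4.94 ± 0.307.

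Insertions near CpG-poor starts were less often listed on the strand of the gene than on the other one. The strand is that of the deposited files, and its relation to the reading direction of the transposon is not given in the sources used here, so which way the transposon pointed is not known. Upstream, from 0.5 to 5 kb, 47.4% ± 0.321 (SD, n = 20) were on the gene strand, in the core 38.7% ± 0.581 and downstream 42.2% ± 0.484, the last below 50% in 20 of 20 libraries (sign-flip permutation test, p = 2.00e-05). At CpG-rich promoters 28.1% ± 1.28 of downstream insertions were on the gene strand, 14.2 percentage points lower (p = 2.00e-05). In 250 bp steps the CpG-poor share was 51.9% at 5 kb upstream, lowest in the last 250 bp before the start at 37.7%, and 40.8% at 5 kb downstream. Since the transposon is read from its own transcript, an insertion is seen only if that transcript is made and captured, and how orientation affects this was not tested.

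**Figure D5:**
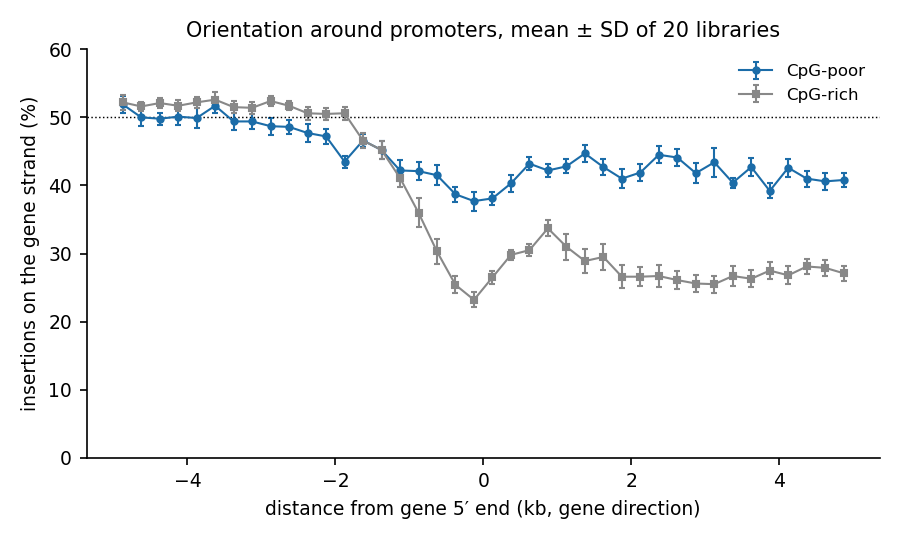
Percent of insertions on the strand of the gene in 250 bp bins around the gene 5′ end, mean and SD of 20 libraries, for CpG-poor and CpG-rich promoters, with a dotted line at 50%. Both fall towards the start, and downstream the CpG-poor share stays near 42 while the CpG-rich share is near 28.

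No difference in the downstream share was detected between high and cold CpG-poor promoters. With promoters chosen in hyPBase and measured in hyPBase-centrip, 41.9% ± 0.305 of downstream insertions at high promoters and 42.3% ± 1.04 at cold ones were on the gene strand (n = 10, exact sign-flip permutation test, p = 0.281, adjusted p = 0.337 over 6 comparisons). With the helpers exchanged the shares were 42.0% ± 0.470 and 41.7% ± 1.07 (exact permutation p = 0.340, adjusted p = 0.340). Upstream, high promoters had a lower share by 1.04 points (lower in 9 of 10 libraries, exact permutation p = 0.0137, adjusted p = 0.0411) and by 2.56 points (10 of 10 libraries, exact permutation p = 0.00195, adjusted p = 0.0117). In the core the shares were 37.9% against 39.6% and 37.5% against 40.5%, differences that missed the threshold after adjustment (exact permutation, adjusted p = 0.103 and 0.0898). As with the class sums, the p-values of strand shares between groups of promoters measure the spread between libraries at the same promoters. They do not measure the spread between promoters, so whether high and cold promoters differ beyond it was not tested.

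At CpG-poor promoters the helpers differed little. The core over the flank was 1.57 ± 0.0405 with hyPBase and 1.59 ± 0.0461 with hyPBase-centrip (log2 difference 0.022, n = 10 and 10, two-sided permutation test, adjusted p = 0.385 over 4 comparisons), and the core over the genome was 2.70 ± 0.100 and 2.75 ± 0.129 (log2 difference 0.028, adjusted p = 0.385). The downstream share on the gene strand was 41.9% ± 0.427 with hyPBase and 42.6% ± 0.270 with hyPBase-centrip, 0.656 points higher (permutation p = 7.60e-04, adjusted p = 0.00304). Reads per insertion near CpG-poor promoters, relative to the library's own mean, were 1.12 ± 0.0161 and 1.13 ± 0.0176 (adjusted p = 0.385). The library means themselves were 3.87 ± 0.732 reads per insertion with hyPBase and 3.00 ± 0.540 with hyPBase-centrip. The 2 libraries with the highest core rate, hyPBase-centrip replicate 3 at 3.05 and hyPBase replicate 8 at 2.94, were among the 3 with fewest insertions. Without both, the class sum over the genome was 1.43 on the log2 scale.

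Promoter by promoter, insertions within 5 kb were compared between helpers with edgeR's quasi-likelihood test over 13627 protein-coding promoters, 3129 of them CpG-poor. With hyPBase-centrip 5 CpG-poor promoters were higher (0.160%, against 0.286% of all tested) and 17 lower (0.543%, against 0.910% of all tested) at an adjusted p below 0.05. Values here are CPM, insertions in the window scaled to a common total over the tested windows of a library. LRRC10, a heart muscle gene, had 77.4 ± 12.2 CPM in hyPBase libraries and 115 ± 21.9 CPM in hyPBase-centrip libraries (mean ± SD over 10; log2 0.56, edgeR adjusted p = 1.51e-04). MS4A4E was likewise higher, at 67.8 ± 12.7 and 96.9 ± 7.86 CPM, and TMEM209 at 374 ± 16.4 and 443 ± 35.3 CPM. KIF5A, a neuronal kinesin gene, was lower with hyPBase-centrip, at 263 and 199.9 CPM (log2 -0.39 ± 0.067 SE, edgeR adjusted p = 4.8e-05), as were DNAJC12, a chaperone gene, at 435 and 350.2 CPM (log2 -0.31 ± 0.054 SE) and RTN4, the Nogo gene, at 534 ± 44.8 and 440.1 ± 66.0 CPM. The annotated 5′ ends lie 62170 bp from the canonical start at RTN4, 4018 bp at KIF5A and 2364 bp at TMEM209. Of the erythroid genes GYPB (log2 -0.34, edgeR adjusted p = 8.11e-04) and HEMGN (log2 -0.27, edgeR adjusted p = 0.00297) were lower. With barcodes collapsed, edgeR called 0 promoters in either direction. The unadjusted edgeR p was then below 0.05 at 77 of 2798 CpG-poor promoters, against 324 of all 12605 tested. On the full counts it was so at 285 of 3129 CpG-poor promoters, against 1680 of all 13627 tested. DESeq2 on the full counts called 4 CpG-poor promoters higher and 13 lower, against 17 and 83 of all 13627 tested.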

How the data were processed

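Insertions were mapped in K562 cells with self-reporting piggyBac transposons read from RNA. The deposited files list 1 insertion per line with its TTAA position, the read count behind it, strand and barcode, and the authors made these counts from sequencing reads on hg38 with Trimmomatic, BWA and SAMtools according to the submitters' processing notes; versions are not given in the sources used here. Insertions, not reads, were counted here, each position, strand and barcode of a library being 1 insertion. Of 22 libraries, 2 whose labels give no single helper were not used, leaving 10 hyPBase and 10 hyPBase-centrip libraries. CpG ratios and TTAA sites came from hg38 and gene starts from GENCODE 44. Rates are insertions per TTAA site divided by the rate of chromosomes 1 to 22 in the same library.

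Class sums were compared over libraries with two-sided sign-flip or two-sample permutation tests (100000 resamples, exact where n is 10 pairs). Single promoters were tested with edgeR 4.0.16 in R 4.3.3. The test of core against flank used promoters with at least 3 core and 10 flank TTAA sites and 40 insertions, with library terms and TTAA offsets, and a call needed an adjusted p below 0.05 and a 2-fold difference. The test of helpers used promoters with at least 5 insertions within 5 kb in 10 libraries and TMM scaling. DESeq2 1.42.0 was an alternative. On simulated counts the helper test recovered 55.5% of 200 promoters changed 1.5-fold and 90% of those changed 2-fold among 13627, and the core test 74.5% of 200 changed 3-fold among 5628. The core simulation gave core and flank the same rate per TTAA site apart from the change, so it held no spread between sites. Named promoters were the erythroid list, the 10 highest in hyPBase with at least 3 core TTAA sites, the 5 largest core to flank differences in each direction, the 3 smallest p between helpers in each direction, and the 3 with most TTAA sites and no insertion; other names give the highest member of a list or were chosen after their values were seen. Some named promoters and sequences are not reported here. The printed erythroid sequence was taken from those with at least 3 core TTAA sites. The promoter class, the gene lists and the tests were chosen with earlier results of these data known. Intervals and limits for counts of 0 cover counting error only, and each library held 1509672 to 3596762 insertions.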

Additional observations from a re-analysis of the deposited data

Results flagged for a closer look

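The share of insertions on the gene strand downstream of CpG-poor promoters differed between the helpers by 0.656 percentage points, 41.9% with hyPBase and 42.6% with hyPBase-centrip (two-sided permutation test, n = 10 and 10, adjusted p = 0.00304 over 4 comparisons). The difference between the helpers was tested directly. At CpG-rich promoters the shares were 27.0% ± 0.771 and 29.1% ± 0.657 (SD). Reads per insertion over the whole library were 3.87 ± 0.732 with hyPBase and 3.00 ± 0.540 with hyPBase-centrip (SD). Whether the strand share goes with reads per insertion was not tested. No library stood apart within its helper in the 16 groups of values that were checked.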

How the results depend on the processing

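Of 159 recomputed values, 152 kept their direction and their side of the threshold, or stayed within 1.5 times a count. Some of these could not change. Values that do not use the core, such as the upstream and downstream strand shares, stay the same with any core width. A replicate block can change the p-value of a mean helper difference but not the difference itself. Over 15 alternatives each, the core over the flank stayed between 0.21 and 0.85 and the core over the genome between 0.17 and 1.63 on the log2 scale, the lower values without the top 10% of promoters and the higher with a core of 250 bp on either side. The difference from CpG-rich promoters in core over flank stayed between -1.84 and -0.80, and the downstream strand difference between 13.22 and 15.45 points. The helper difference in core over flank turned to -0.00375 with barcodes collapsed (adjusted p = 0.981), and that in reads per insertion to -0.01 without the top 1% and -0.0194 without the top 10% of promoters (adjusted p = 0.194 and 0.025). Without the top 10%, the helper difference in core over genome was 0.0623 (adjusted p = 0.0228), and the cause was not tested. The helper difference in downstream strand share stayed between 0.57 and 0.89 points with adjusted p from 4.20e-04 to 0.0469. CpG-poor promoters with a core 2-fold off the flank numbered 1068, and 2013 with no filter beyond 1 insertion, where more promoters were tested. CpG-poor promoters differing between helpers numbered 22 of 3129 tested, but 7 of 688 within 1 kb and 0 of 2798 with barcodes collapsed, with 33 at the most. Over all promoters, 39 were higher and 124 lower of 13627 tested, and 23 higher and 36 lower of 5479 within 1 kb. The labels do not say that replicate numbers pair libraries of the helpers. Correlations between same-numbered libraries, over promoters and after removal of each helper's mean, ran from -0.039 to 0.023. These deviations hold counting error, so a shared batch could go unseen. With the replicate number as a block, the helper differences were 0.0224, 0.0281, 0.66 and 0.00672, the third with adjusted p = 0.0469, and 24 promoters differed. TTAA sites outside repeats were not run because the genome used has no repeat marks, and reads per insertion were not recomputed where reads or barcodes were regrouped. Depth limits single promoters most: 3 sites without insertion allow 0.355 times the genome rate.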

Other observations

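The orientation of insertions differed greatly from promoter to promoter. Among 405 CpG-poor promoters with at least 4 times the genome rate and 50 core insertions, the median share on the gene strand was 35.6% (quartiles 17.3 and 53.5), with 61 promoters (15.1%) at 10% or less and 14 (3.46%) at 90% or more. Among 1353 CpG-rich promoters of the same level the median was 17.5%, with 34.2% of them at 10% or less. At EPB42 3.79% of 396 core insertions were on the gene strand, while at RHAG the share was 48.0% of 1162 and at RHD 100% of 99. Those of RHD lay on sites with 31, 53 and 15 insertions, beside sites with 0, and read placement there was not tested. At EPB42 the sites 417 bp upstream and 273 bp downstream held 125 of 127 and 221 of 223 insertions on the strand opposite to the gene. At SLC7A11 the share was 9.60% of 1739, against 49.3% of 1561 at PALMD. These values were chosen for description after they were seen, and the cause was not tested.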
